A study of Mus musculus with 6 samples.

Results

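Receptors that read sugars, sialic acids and membrane lipids on the surface of white blood cells were examined in mouse peritoneum, the thin lining of the abdomen. The genes were taken by symbol: every row of the count table beginning with Clec and a digit, Siglec, Cd300, Pira, Pirb or Lilr, which gave 49 of 14943 listed genes, 25 Clec, 5 Siglec, 10 Cd300 and 9 Pir or Lilr genes. RNA was sequenced from 3 control and 3 EPS libraries of peritoneum from wild-type (WT) male C57BL/6J mice aged 8 weeks. EPS stands for a model of encapsulating peritoneal sclerosis, in which fibrous tissue encases the bowel: these mice were injected into the abdomen daily with 100 mL/kg of a 4.25% peritoneal dialysis fluid and with an agent labelled SHS (0.3 mL), and weekly with 4 mg/kg of lipopolysaccharide, an endotoxin of bacteria, and controls received an equal volume of saline. The mice were killed in week 3, when adhesions were visible in the EPS mice. All agents were given together, so their effects cannot be told apart, and the labels do not say whether a library is 1 mouse or a pool, so that p-values measure the spread between these libraries only. Where 3 values are given for a group, they are those of libraries 1, 2 and 3 in that order.

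C-type lectins share a fold that in many members binds sugars, and Siglecs bind sialic acids, the acidic sugars that cap most glycans of an animal's own cells. CD300 and paired immunoglobulin-like receptors (PIR in mice, LILR in primates and some mouse genes) bind membrane lipids, MHC class I and other ligands. Most of these receptors sit on macrophages, neutrophils and dendritic cells and come in opposed pairs: activating members signal through an ITAM motif, usually on the adaptor proteins FcR gamma or DAP12, to the kinase Syk, and inhibitory members carry an ITIM motif that recruits the phosphatases SHP-1 and SHIP-1. Some members do neither: they take up ligand, hold cells together, serve as ligands of natural killer cell receptors, or are secreted.

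Promoters are shown first for 5 of the genes of lowest adjusted p among activating and inhibitory receptors, because 1 short motif recurs in them. The 5 were picked by hand and all hold the motif, so they do not show how common it is. Cd300lb, the activating gene of lowest adjusted p, is not among them. A promoter of 300 bases, from 250 before the start of the gene, was listed by RefSeq (GRCm38.p6) for 37 of the 49 genes, and those of Clec4n, Siglec1, Cd300lg, Clec3b and Clec10a were not used here. Of 4 motifs searched, GAGGAA, the core bound by PU.1, a transcription factor of the myeloid and B lineages, is in capitals below; each motif was searched on both strands (for the core, TTCCTC on the other). The runs are written 5′ to 3′ along the gene, on the minus strand except for Clec12a: Cd300lf at chr11:115133943-115134242, Clec12a at chr6:129349994-129350293, Cd300c2 at chr11:115001831-115002130, Pirb at chr7:3720333-3720632 and Pira2 at chr7:3845002-3845301.

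Cd300lf: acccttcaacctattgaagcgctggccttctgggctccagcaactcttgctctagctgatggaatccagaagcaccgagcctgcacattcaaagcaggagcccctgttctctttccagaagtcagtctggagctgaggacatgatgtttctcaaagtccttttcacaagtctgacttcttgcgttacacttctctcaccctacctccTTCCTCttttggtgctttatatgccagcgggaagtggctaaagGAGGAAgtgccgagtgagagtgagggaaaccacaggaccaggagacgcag
Clec12a: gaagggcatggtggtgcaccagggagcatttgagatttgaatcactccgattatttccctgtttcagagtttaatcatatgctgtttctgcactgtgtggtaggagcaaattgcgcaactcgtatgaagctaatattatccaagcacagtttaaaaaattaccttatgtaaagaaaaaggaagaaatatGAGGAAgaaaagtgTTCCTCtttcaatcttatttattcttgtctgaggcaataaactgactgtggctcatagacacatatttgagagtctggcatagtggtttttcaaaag
Cd300c2: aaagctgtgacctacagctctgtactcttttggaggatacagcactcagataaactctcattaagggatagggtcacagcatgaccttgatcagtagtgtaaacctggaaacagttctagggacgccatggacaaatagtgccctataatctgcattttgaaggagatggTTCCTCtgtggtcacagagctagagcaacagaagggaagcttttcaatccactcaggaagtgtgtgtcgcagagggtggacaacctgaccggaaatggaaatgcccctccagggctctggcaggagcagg
Pirb: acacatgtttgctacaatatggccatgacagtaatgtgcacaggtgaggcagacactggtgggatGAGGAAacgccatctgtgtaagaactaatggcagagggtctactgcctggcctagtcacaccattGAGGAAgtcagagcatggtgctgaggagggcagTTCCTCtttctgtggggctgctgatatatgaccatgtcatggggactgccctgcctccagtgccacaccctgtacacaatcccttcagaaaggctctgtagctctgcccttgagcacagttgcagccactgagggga
Pira2: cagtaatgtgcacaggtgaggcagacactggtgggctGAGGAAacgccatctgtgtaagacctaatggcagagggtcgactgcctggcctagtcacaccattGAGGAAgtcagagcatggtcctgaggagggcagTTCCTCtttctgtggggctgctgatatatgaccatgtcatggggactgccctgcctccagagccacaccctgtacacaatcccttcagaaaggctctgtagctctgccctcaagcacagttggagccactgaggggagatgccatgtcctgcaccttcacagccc

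At least 1 GAGGAA was found in 25 of the 37 promoters, or 67.6%, against 28.3% of 27025 promoters of the same length. The longer form GAGGAAGT, which contains the core, was found in 7 of 37 against 3.28% of all promoters. TTGCNNAA, a motif of the C/EBP factors, was found in 8 of 37 against 10.75%. A composite motif of interferon regulatory factors, GAAA and GAAA with 2 bases between them, was found in 5 of 37 against 3.49%. Of the 30 promoters whose genes were called higher in EPS, 21 held the core. So did 4 of the 7 others: Clec16a, called lower, Lilra5, not called, and Clec2h and Clec4b1, not tested. The core was thus not confined to genes called higher. The longer form was in 7 of the 30, among them Pirb, Pira1, Pira2 and Lilra6, and in 0 of the 7 others. Pirb, Pira1, Pira2 and Lilra6 each held 3 cores with the same gaps of 65 and 33 bases, and their aligned promoters were 95.9 to 100% identical, so these 4 are copies and not 4 separate instances. A match is a description of the letters and no measure of binding.

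The libraries held 15419232 to 17684229 counts, and the receptor genes took few of them. Levels are given as CPM, counts divided by the TMM-scaled library size. The 5 mesothelium markers summed to 117 to 182 CPM in controls and 36.8 to 192 CPM in EPS and none was called, while 4 adipocyte markers summed to 8308 to 9070 CPM in controls and 592 to 976 CPM in EPS. EPS 1 stood apart: 12.4% of its counts fell on 10 exocrine pancreas genes, against 0.0189 to 0.301% in the other libraries. Control 3 stood apart from controls 1 and 2: chi-square per gene averaged 4.41 for that pair, and 15.9 and 16.4 where control 3 was 1 of the pair. Over 30 of the receptor genes the average for controls 1 and 2 was 1.45, where counting noise gives about 1. In the pairs with control 3 it was 5.414 and 6.996 over the receptor genes. The pancreas genes held 0.301 and 0.278% of the counts in controls 1 and 2, and 0.0266% in control 3. The labels do not say whether controls 1 and 2 share a mouse. If they do, n = 3 overstates the control replication behind the SDs and p-values. Controls 1 and 2 were kept as 2 samples, as labelled, and counts with the 2 averaged are given beside the main ones.

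Most of the receptor genes were higher in EPS. Of the 49, 43 passed the filter on low counts, and 37 of these were higher in EPS, 3 were lower (Cd300lg, Clec3b and Clec16a) and 3 were not called (Clec10a, Clec1a and Lilra5) by edgeR's quasi-likelihood test at an adjusted p under 0.05. Over all 13980 tested genes, 29.2% were called higher and 30.4% lower, 59.6% in all; with library totals in place of TMM scaling, 5657 genes were higher and 2182 lower, in place of 4088 and 4245. A log2 fold change over 3 was reached by 23 of the 37 and by 6.35% of all tested genes. The median log2 fold change was 3.08 over the 43, also with the 1 tested gene without control counts at its lower bound, and -0.02 over all tested genes. A gene can pass the filter through its EPS counts alone, so these figures describe the 43 and not the whole family. Of the same 43, 37 were higher and 3 lower without EPS 1, 36 and 3 with controls 1 and 2 averaged, and 38 and 2 with library totals. Separation of the groups, with every EPS library above or below every control library in CPM, was seen for 40 of the 43, and for 68.5% of all tested genes; EPS was the higher group for 37 of the 40, and for 33.1% of all tested genes. In controls 23 of the 49 genes averaged under 1 CPM and 9 at least 10 CPM, and in EPS 5 and 27. In bulk tissue, more cells of a type and more RNA per cell cannot be told apart, and this holds for every value below.

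**Figure D1:**
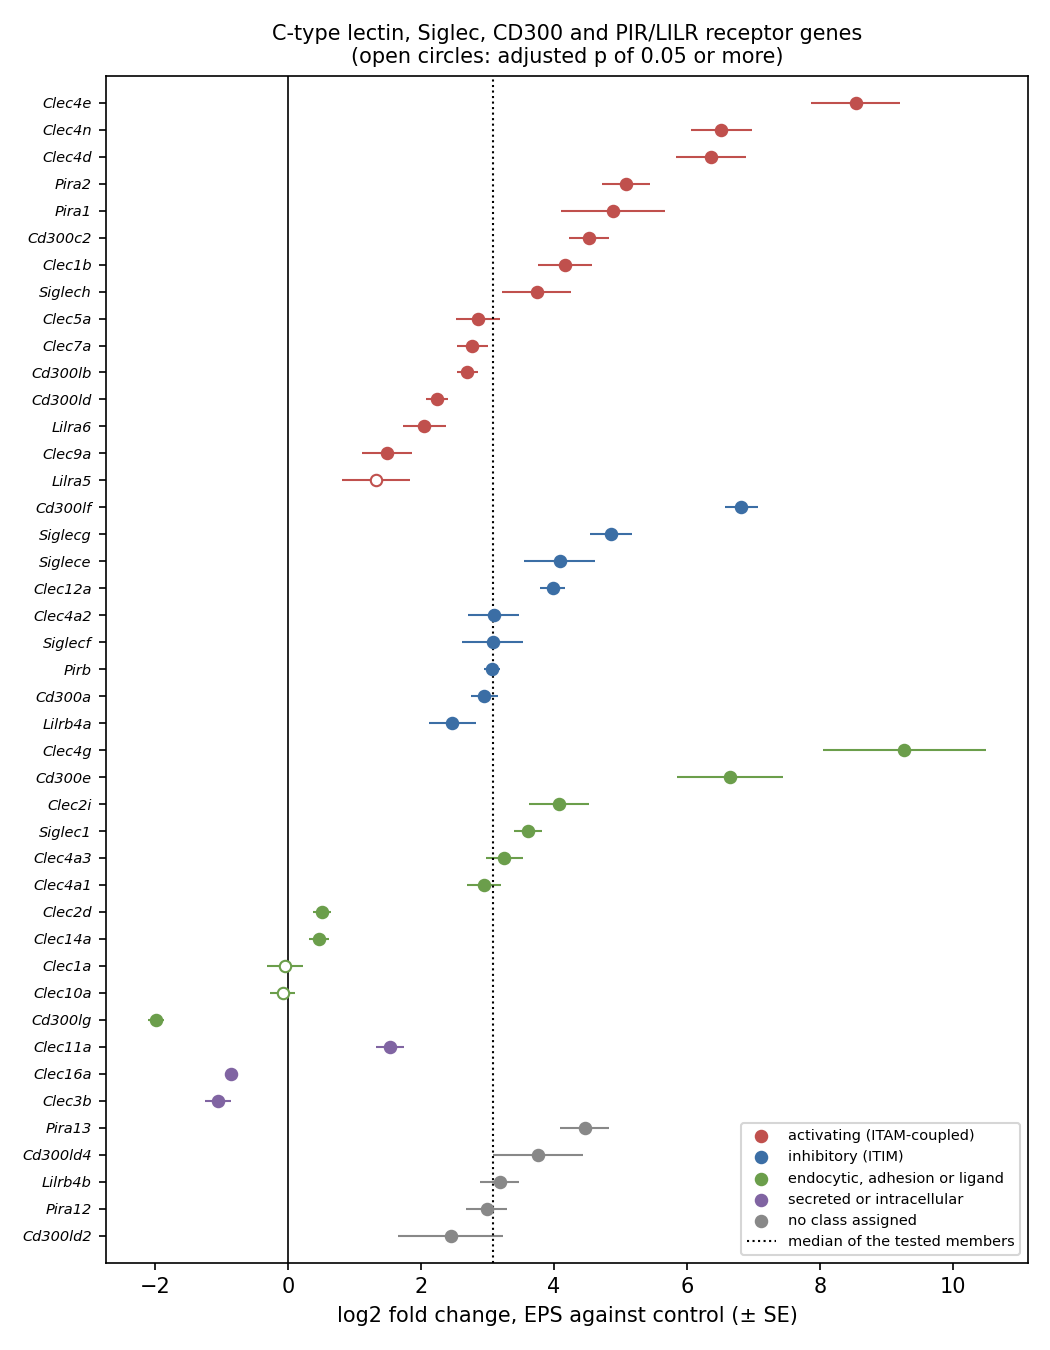
Log2 fold change of EPS against control for the 43 tested genes, with bars of 1 standard error, grouped and coloured by class. Open circles mark the 3 genes that were not called, the dotted line is the median of 3.08, and the fitted value of Clec4g, which has no control count, depends on the prior count.

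The receptors' share of all counts was higher in each EPS library than in any control. It was 0.0662, 0.0645 and 0.0669% in the control libraries, against 0.140, 0.223 and 0.198% for EPS. The means were 0.0658% ± 0.00119 (SD, n = 3) and 0.187% ± 0.0427, a ratio of 2.84 (two-sided exact permutation test, p = 0.1; groups of 3 can give no smaller p). The exact 95% Clopper-Pearson interval of the lowest EPS share, 0.138 to 0.142%, lies above that of the highest control share, 0.0656 to 0.0681%. These shares are of raw library totals, without TMM scaling. In TMM-scaled CPM the 49 genes summed to 754 to 762.5 in controls and 1497 to 1748 in EPS, a smaller difference.

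The make-up of these counts differed as well. In controls the endothelial gene Cd300lg held 33.9, 33.7 and 37.4% of them, Clec3b, a secreted plasminogen-binding protein, 25.8, 24.8 and 23.2%, and Clec16a, which is not a surface receptor, 11.1, 11.0 and 10.2%. Together these 3 genes held 69.6 to 70.9% of the counts in controls and 11.8 to 13.8% in EPS. Siglec1, a sialic acid receptor of macrophages, held 4.12 to 4.94% in controls and 21.9, 31.8 and 25.6% in EPS. Pirb, an inhibitory receptor, went from 2.34 to 2.47% to 8.05 to 11.6%. The shares of each gene did not overlap between the groups, and long genes weigh more in them than short ones.

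**Figure D2:**
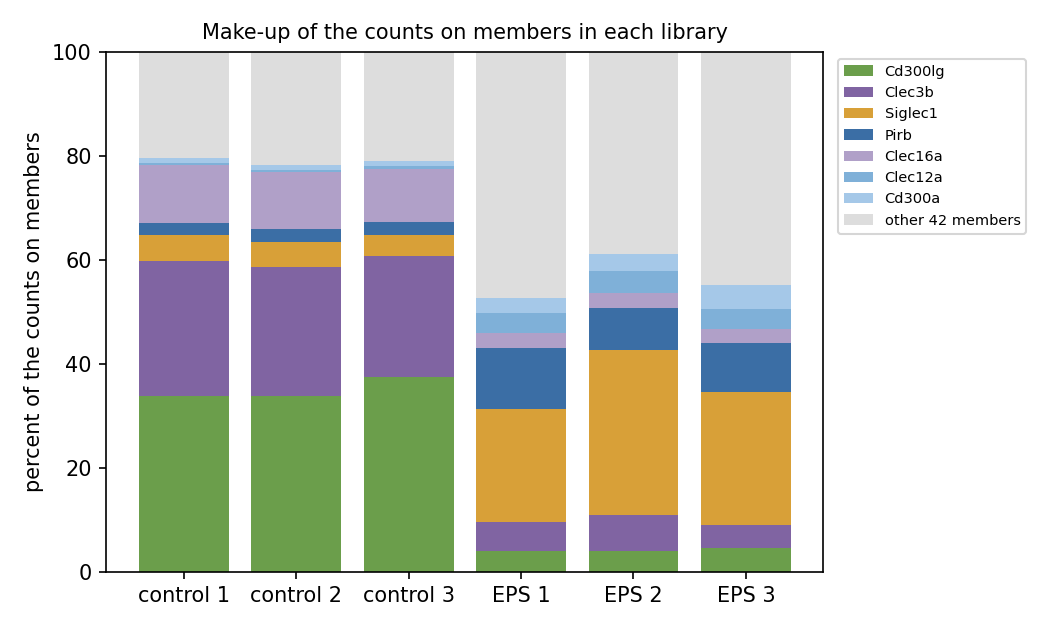
Share of the counts on the 49 genes held by 7 of them and by the rest, as stacked bars from 0 to 100% for each library. Cd300lg falls from 33.7 to 37.4% of the counts in controls to 3.95 to 4.59% in EPS, and Siglec1 rises from 4.12 to 4.94% to 21.9 to 31.8%.

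Scaled by exon length (in CPM per kb of GENCODE vM21 exon union, available for 45 genes), Clec3b had the highest mean level in both groups, at 188 in controls and 90.7 in EPS. Cd300lg and Clec2d followed in controls, at 97.1 and 27.5 CPM per kb, and Siglec1 and Clec2d in EPS, at 59.8 and 39.2. Clec4a1, Pirb and Clec4a3 came next in EPS, at 38, 34.4 and 30.3 CPM per kb, and stood at 4.89, 4.09 and 3.15 in controls. The lowest control levels among genes with a count belonged to Clec4e, Cd300e and Clec4a4, at 0.00924, 0.0220 and 0.0284 CPM per kb. The authors' gene models are not named in the labels, so these lengths are approximate, and neighbours in the order were not tested against each other.

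**Figure D3:**
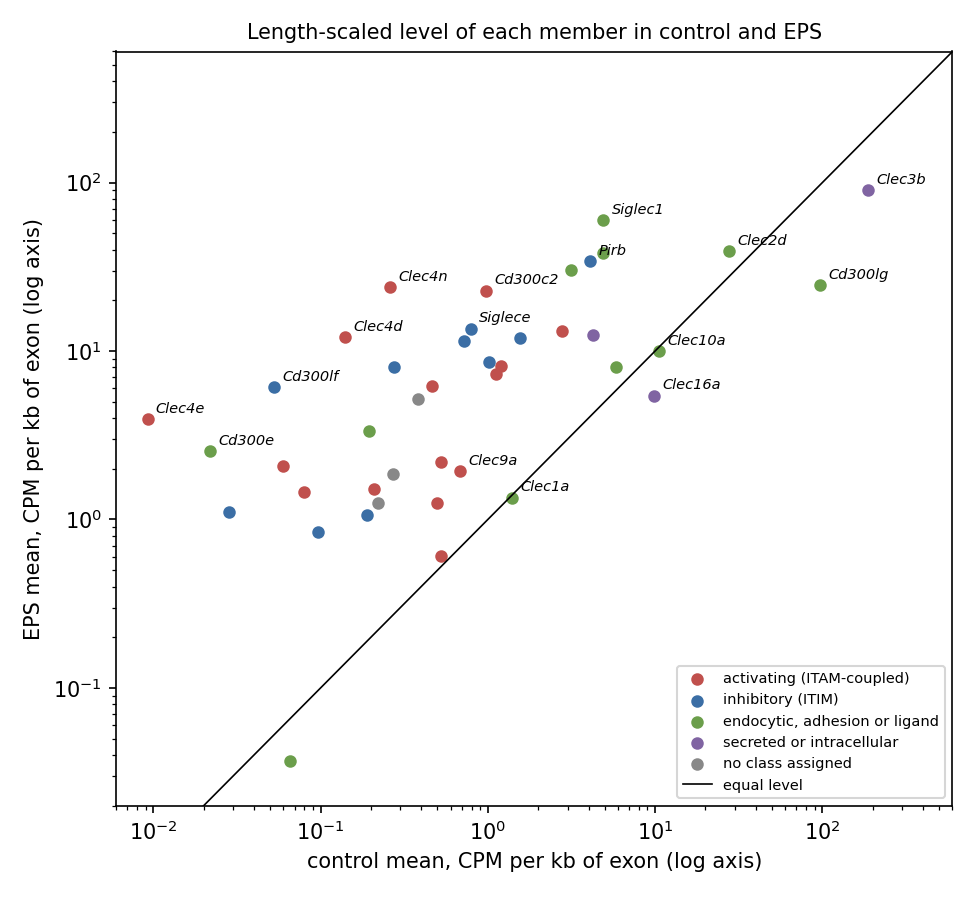
Mean level in control (horizontal) and in EPS (vertical), both in CPM per kb of exon on log axes, for the 42 genes with a length and with counts in both groups; the line marks equal levels. Clec4e lies farthest above the line, Clec10a and Clec1a lie on it, and Cd300lg, Clec3b, Clec16a and, at the lowest levels, the untested Clec2e lie below it.

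Among activating receptors, the Dectin-2 group of C-type lectins had the largest rises. The group lies on chromosome 6 (122921848 to 123289870), and its activating members signal through FcR gamma. Clec4e encodes Mincle, a receptor for mycobacterial glycolipids and for products of dead cells (chromosome 6, 123281789 to 123289870). Clec4e was at 0.0714, 0 and 0.0661 CPM in the control libraries, against 31.3, 15.3 and 12.3 CPM for EPS. Control expression was near 0 and the EPS libraries did not come near it, with EPS 1 highest. The 2 control counts against 1026 in EPS give a ratio of 406 (exact 95% counting interval 112 to 3358; adjusted p = 2.95e-05). Clec4d, which encodes MCL, the partner of Mincle, was at 0.143, 0.463 and 0.0661 CPM in the control libraries, against 27.2, 15.6 and 15.0 CPM for EPS, again highest in EPS 1 (log2 fold change 6.37 ± 0.53, adjusted p = 3.43e-05; 7.44 without control 2, which holds most of its control counts). Clec4n encodes Dectin-2, a receptor for fungal mannans, and was at 0.714, 0.0661 and 0.331 CPM in the control libraries, against 34.9, 28 and 38.9 CPM for EPS. Its 3 EPS values lay close together, 93.3-fold above control (log2 fold change 6.52 ± 0.46, adjusted p = 1.87e-05; 7.36 without control 1). Clec4b1 of the same group had 18 control and 28 EPS counts and was left out by the filter, and the EPS and control values overlapped. Clec4e and Clec4d were chosen after their values were seen, as were Clec7a, Clec5a, Siglech, Clec9a, Clec1b, Siglece, Siglecf, Clec4g, Cd300e, Clec4a2, Lilrb4a, Pira1, Lilra6, Clec2d and Clec14a below; the other tested receptor genes are named by rule.

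Neutrophils and monocytes carry these lectins. All 8 neutrophil markers tested were higher in EPS, and their summed level was 4.43 to 5.15 CPM in controls and 532 to 1618 CPM in EPS, with Ly6g at 0 in all controls. By library the sum was 532, 674 and 1618 CPM in EPS 1 to 3, of which Ngp held 132, 315 and 786 CPM. Clec4e and Clec4d were highest in EPS 1, as was the marker Csf3r (159, 101 and 149 CPM). The other neutrophil markers were highest in EPS 3. All 4 monocyte markers were higher too, with sums of 29.5 to 36.1 CPM in controls and 274 to 500.4 CPM in EPS. The part of either cell type in the rise was not tested.

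The other activating C-type lectins had smaller log2 fold changes. Clec7a encodes Dectin-1, the beta-glucan receptor that signals through a motif of its own, and was at 2.50, 2.91 and 4.03 CPM in the control libraries, against 17.8, 24.9 and 22 CPM for EPS (log2 fold change 2.77 ± 0.23, adjusted p = 2.86e-05). Clec5a, which encodes MDL-1 and pairs with DAP12, rose by 2.86 ± 0.34 on the log2 scale. Clec1b encodes CLEC-2, the podoplanin receptor of platelets, and was at 0.357, 0.529 and 0.331 CPM in the control libraries, against 4.64, 8.18 and 9.46 CPM for EPS. The EPS values did not overlap with control (log2 fold change 4.17 ± 0.41, adjusted p = 6.27e-05). Of 3 platelet markers with counts, 1 was called higher, with sums of 19.8 to 22.5 CPM in controls and 36.1 to 74.4 CPM in EPS. Clec9a, a receptor for actin filaments of dead cells on type 1 dendritic cells, was at 2.00, 1.39 and 3.37 CPM in the control libraries, against 4.78, 7.94 and 6.34 CPM for EPS, 2.90-fold higher by summed counts (log2 fold change 1.5 ± 0.38, adjusted p = 0.0094). Type 1 dendritic cell markers summed to 55.2 to 63.2 CPM in controls and 466 to 588 CPM in EPS, with 6 of 7 higher and none at 0. Irf8 and Wdfy4 held most of the EPS sums, at means of 250 and 220 CPM. The median log2 fold change of the 7 markers was 1.44. Clec1b and Clec9a share 184 exon bases on the same strand, 3.61% and 5.59% of their lengths, and reads there could be counted to either.

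Of the activating CD300 receptors, all 3 were called higher, against 29.2% of all tested genes. Cd300lb (LMIR5, which pairs with DAP12) was at 3.21, 3.30 and 3.31 CPM in the control libraries, against 19.3, 21.2 and 23.3 CPM for EPS, 6.56-fold higher (log2 fold change 2.70 ± 0.16, adjusted p = 5.65e-06). Cd300ld (MAIR-IV, which pairs with FcR gamma) was at 7.21, 7.07 and 7.80 CPM in the control libraries, against 38.2, 38.1 and 28.6 CPM for EPS, 4.71-fold higher (log2 fold change 2.25 ± 0.16, adjusted p = 1.42e-05). Cd300c2 (MAIR-II, a DAP12 partner) had the largest rise of the 3, at 0.643, 1.39 and 1.72 CPM in the control libraries, against 26.4, 32.5 and 28.6 CPM for EPS (log2 fold change 4.53 ± 0.30, adjusted p = 1.01e-05). In each of these genes the lowest EPS library was more than 3 times the highest control library.

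Siglech, a DAP12-coupled Siglec of plasmacytoid dendritic cells, was at 1.86, 1.72 and 1.12 CPM in the control libraries, against 8.38, 31.8 and 22.6 CPM for EPS. EPS 1 was well under EPS 2 and EPS 3 but above every control (log2 fold change 3.74 ± 0.52, adjusted p = 6.47e-04). Plasmacytoid markers summed to 55.8 to 60.2 CPM in controls and 262 to 356 CPM in EPS, 284 CPM in EPS 1, 262 in EPS 2 and 356 in EPS 3. Spib held the largest part of the EPS sums, at 136, 111 and 167 CPM. Ccr9, Pacsin1, Cox6a2 and Runx2 were lowest in EPS 1, as Siglech was, Spib and Ly6d in EPS 2, and Tcf4 in EPS 3. The part of these cells in the values of Siglech was not tested. Of the 7 markers 6 were higher and none was at 0.

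Activating PIR genes rose from very low control levels. Pira2 was at 0.286, 0.132 and 0.198 CPM in the control libraries, against 7.97, 6.72 and 6.84 CPM for EPS (log2 fold change 5.08 ± 0.36, adjusted p = 1.26e-05). Pira1 rose by 4.89 ± 0.78 on the log2 scale, and by 7.37 without control 2, which holds 9 of its 10 control counts. Lilra6 rose by 2.06 ± 0.32. Lilra5 was at 0.500, 0.925 and 1.72 CPM in the control libraries, against 3.05, 3.34 and 1.59 CPM for EPS, and EPS 3 lay under control 3 (log2 fold change 1.33 ± 0.52, adjusted p = 0.0548, not called). Its adjusted p fell under 0.05 in 6 of 15 alternatives, with a lowest of 0.0128 with library totals and a highest of 0.157. PIR genes are near-identical copies of each other and of Pirb, so how reads were divided among them is uncertain.

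Of the 10 inhibitory receptors 9 passed the filter, and all 9 were called higher, against 29.2% of all tested genes. A gene can pass the filter through its EPS counts alone, so this describes the 9 and not the class. Cd300lf (chromosome 11, 115116214 to 115133992), which encodes CLM-1, an ITIM receptor of myeloid cells for membrane lipids, had the largest rise of the 9. It was at 0.286, 0.264 and 0.265 CPM in the control libraries, against 29.6, 27.1 and 37.7 CPM for EPS, 116-fold higher (log2 fold change 6.82 ± 0.24, adjusted p = 1.66e-06). The control values were almost equal, and the EPS values stayed within 27.1 to 37.7 CPM. Pirb, a receptor for MHC class I, was the most abundant inhibitory gene in CPM and was at 17.8, 18.6 and 18.5 CPM in the control libraries, against 174, 141 and 146 CPM for EPS (log2 fold change 3.07 ± 0.12, adjusted p = 1.72e-06). Both groups were tight, and EPS was 8.27-fold higher. Clec12a, a receptor for uric acid crystals that restrains neutrophils, was at 3.43, 3.57 and 4.96 CPM in the control libraries, against 58.9, 71.9 and 58.7 CPM for EPS (log2 fold change 3.98 ± 0.18, adjusted p = 2.58e-06). Cd300a, which binds phospholipids on dying cells, was at 7.50, 7.07 and 7.54 CPM in the control libraries, against 42, 58.5 and 70.5 CPM for EPS (log2 fold change 2.95 ± 0.20, adjusted p = 1.11e-05), with EPS 1 lowest of the EPS libraries. Clec4a2 (DCIR1) and Lilrb4a (gp49B) rose by 3.09 ± 0.39 and 2.47 ± 0.35 on the log2 scale, and Lilrb4a shares 35.3% of its exon bases with Gm49339 on the same strand, which makes its value uncertain. Clec4a4 (DCIR2) was not tested and had 1 control and 46 EPS counts, a ratio of 36.4 (exact 95% counting interval 6.22 to 1469).

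The inhibitory Siglecs lie together on chromosome 7 (43351341 to 43660161) and differ in the cells that carry them. Siglecg, which restrains B cell receptor signalling, was at 1.36, 0.859 and 1.72 CPM in the control libraries, against 38.9, 27.8 and 48.5 CPM for EPS, 29.1-fold higher (log2 fold change 4.86 ± 0.31, adjusted p = 9.58e-06). All 5 B cell markers were higher, with sums of 5.95 to 10.7 CPM in controls and 417 to 704 CPM in EPS; these were 704, 417 and 683 CPM in EPS 1 to 3, and EPS 2 was lowest for Siglecg as well. Siglece, a Siglec of neutrophils and macrophages, was at 1.21, 1.12 and 2.05 CPM in the control libraries, against 43.4, 13.0 and 19.0 CPM for EPS. EPS 1 was 3.34 times EPS 2, the opposite order to Siglech (log2 fold change 4.09 ± 0.54, adjusted p = 5.21e-04). Siglecf, an eosinophil Siglec also found on some macrophages, stayed low at 0.214, 0.396 and 0.198 CPM in the control libraries, against 1.94, 2.16 and 2.92 CPM for EPS (log2 fold change 3.08 ± 0.46, adjusted p = 6.11e-04). Eosinophil markers summed to 6.87 to 11.7 CPM in controls and 13.5 to 32.8 CPM in EPS, with 3 of 5 higher and Epx at 0 in all controls. The part of each cell type in these values was not tested.

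**Figure D4:**
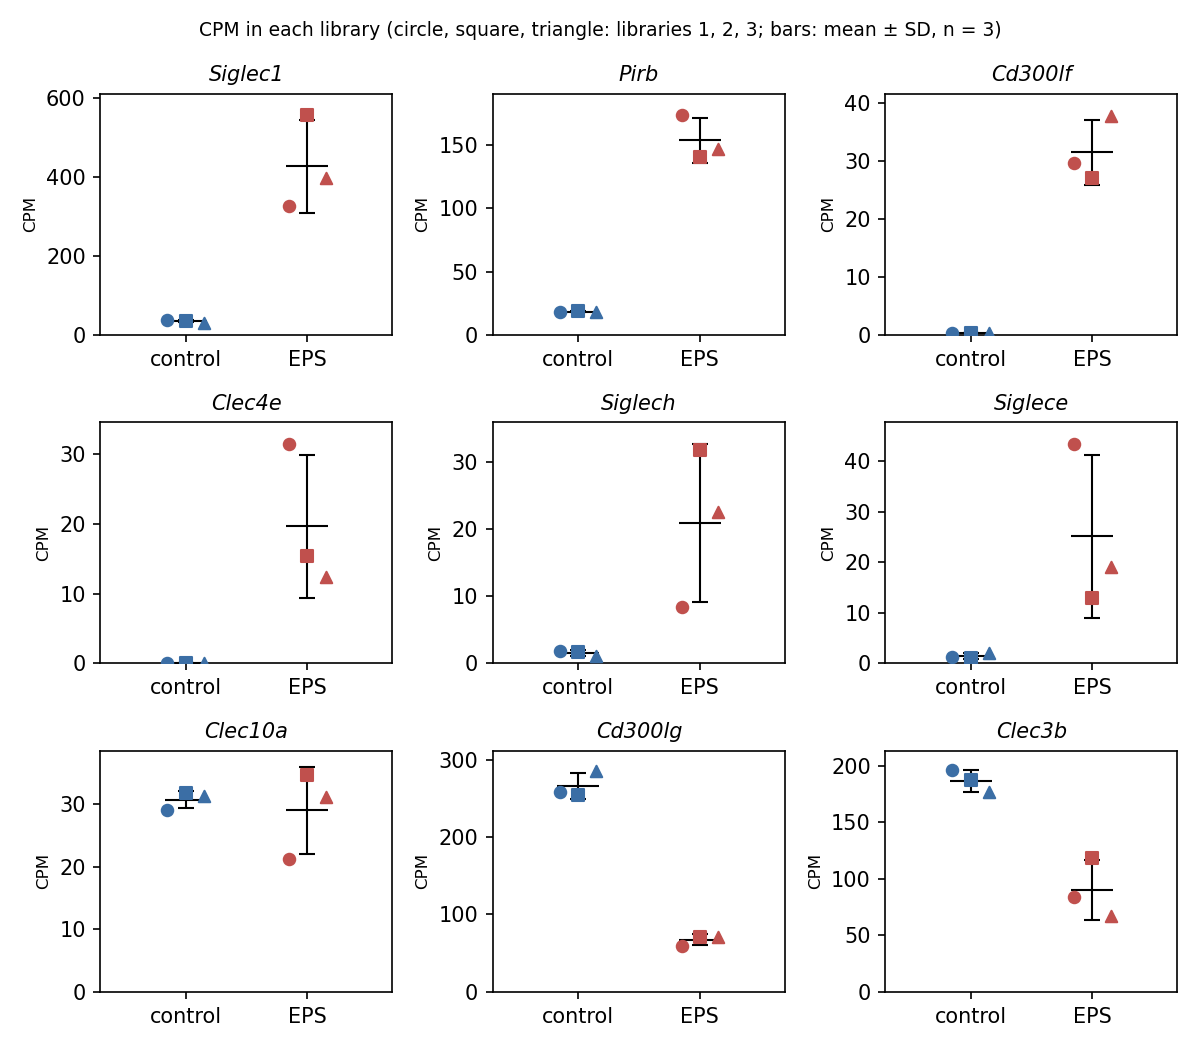
CPM of 9 receptor genes in each library, with circles, squares and triangles for libraries 1, 2 and 3 of a group and bars for the mean ± SD (n = 3); each axis starts at 0. EPS 1 is highest for Clec4e (31.3 CPM) and Siglece (43.4 CPM) and lowest for Siglech (8.38 CPM), while Clec10a overlaps between the groups and Cd300lg and Clec3b are lower in EPS.

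Activating and inhibitory receptors rose side by side. Summed counts of the 10 inhibitory genes over those of the 16 activating genes were 1.59, 1.5 and 1.5 in the control libraries, against 1.72, 1.46 and 1.78 for EPS. The mean ratio was 1.53 ± 0.0529 (SD, n = 3) in controls and 1.65 ± 0.171 in EPS, and the groups overlapped (exact two-sided permutation p = 0.4). With counts per kb of exon the ratio was 0.926 ± 0.0260 in controls and 0.895 ± 0.119 in EPS (exact permutation p = 0.9), so no direction is given.

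Siglec1 encodes sialoadhesin (CD169), a macrophage receptor that has no ITIM and binds sialylated cells and particles (chromosome 2, 131069220 to 131086765). It was at 37.6, 36.1 and 31.4 CPM in the control libraries, against 327, 557 and 397 CPM for EPS. Every EPS library was above 8 times the highest control, and EPS was 12.6-fold higher by summed counts (log2 fold change 3.61 ± 0.21, adjusted p = 6.53e-06). Macrophage markers summed to 476 to 538 CPM in controls and 2180 to 2394 CPM in EPS, with 7 of 8 higher and a median log2 fold change of 2.14, and none at 0. Clec4a1 and Clec4a3 encode DCIR4 and DCIR3, which lack the ITIM of DCIR1. Clec4a1 was at 6.71, 5.88 and 10.3 CPM in the control libraries, against 73.1, 57.4 and 47.2 CPM for EPS (log2 fold change 2.96 ± 0.25, adjusted p = 4.11e-05). Clec4a3 was at 3.50, 3.04 and 6.02 CPM in the control libraries, against 48.7, 36.5 and 35.3 CPM for EPS (log2 fold change 3.26 ± 0.28, adjusted p = 3.82e-05), and neither gene overlapped between the groups. Cd300e, a CD300 receptor of monocytes in humans, had 2 control and 282 EPS counts, a ratio of 112 (exact 95% counting interval 30.6 to 926).

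Clec10a was not called. It encodes MGL1 (CD301a), a galactose-binding lectin of resident and alternatively activated macrophages and of dendritic cells (chromosome 11, 70156197 to 70170834). It was at 29.1, 31.8 and 31.3 CPM in the control libraries, against 21.3, 34.7 and 31.2 CPM for EPS. The groups overlapped, and the estimate was -0.08 ± 0.18 on the log2 scale (adjusted p = 0.728), with a sign that turned without EPS 1 (0.17) and with library totals (0.38). Its neighbour Mgl2 (CD301b; chromosome 11, 70130329 to 70137550), named because of this value and outside the symbol rule, was at 30.8, 32.6 and 35.2 CPM in the control libraries, against 1.04, 4.28 and 4.51 CPM for EPS. Mgl2 was lower in every EPS library and 9.34-fold lower by summed counts (log2 fold change -3.29 ± 0.45, adjusted p = 6.25e-04). The 2 genes are close copies, so the division of reads between them is uncertain. Type 2 dendritic cell markers, Mgl2 among them, summed to 66.6 to 77.8 CPM in controls and 73.2 to 132 CPM in EPS. Of the 5, 2 were higher (Itgax and Flt3) and 1, Mgl2, was lower. Cd209a was not called, at 4.57, 5.22 and 8.73 CPM in the control libraries, against 0, 1.93 and 3.765 CPM for EPS. No marker was at 0 in all libraries of a group.

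Members of endothelial cells did not move as 1 group. Cd300lg encodes nepmucin (CLM-9), an adhesion receptor of capillary endothelium and of venules in lymph nodes (chromosome 11, 102041509 to 102055620). It was at 258, 254 and 285 CPM in the control libraries, against 59.1, 71.5 and 71.3 CPM for EPS, 3.90-fold lower in EPS (log2 fold change -1.98 ± 0.12, adjusted p = 5.43e-06). All 4 blood endothelium markers were lower, with a median log2 fold change of -0.97 and sums of 1698 to 1758 CPM in controls and 727 to 952 CPM in EPS. Clec14a, an endothelial lectin that binds multimerin 2, was at 27.4, 30.8 and 21.4 CPM in the control libraries, against 38.9, 33.8 and 37.8 CPM for EPS, slightly higher in EPS (log2 fold change 0.47 ± 0.15, adjusted p = 0.0281). It was not called without control 1 (adjusted p = 0.0758), control 3 (0.0904) or EPS 3 (0.0541), and over all alternatives its adjusted p ranged from 0.00256 to 0.0904. Clec1a was at 5.57, 7.86 and 8.14 CPM in the control libraries, against 4.85, 8.36 and 7.73 CPM for EPS and was not called (log2 fold change -0.04 ± 0.27, adjusted p = 0.91), with a sign that turned in 7 of 15 alternatives. Clec4g encodes LSECtin, a lectin of sinusoidal endothelium in liver and lymph node; it had no control count and was at 1.59, 5.73 and 6.39 CPM in the EPS libraries, at least 72.3-fold higher against a floor of 3 counts over the control group (adjusted p = 0.00129). Of 4 lymphatic endothelium markers 3 were higher, with sums of 261 to 275 CPM in controls and 729 to 1457 CPM in EPS. Ccl21a held most of the EPS sums, at 491, 706 and 1090 CPM. Lyve1 and Prox1 rose by 0.53 and 1.28 on the log2 scale, and Flt4 was not called. The part of lymphatic endothelium in the values of Clec4g was not tested.

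The Clec2 genes encode ligands of NKR-P1 receptors on natural killer cells and lie on chromosome 6 (128662385 to 129186534). Clec2d (Clr-b), which is broadly expressed and restrains natural killer cells, was at 34.1, 35.3 and 30.7 CPM in the control libraries, against 39.2, 52.2 and 51.3 CPM for EPS, 1.45-fold higher (log2 fold change 0.51 ± 0.14, adjusted p = 0.0116; 0.0536 without control 3, with a range of 0.000871 to 0.0536). Clec2i (Clr-g), which is found on activated lymphocytes, was at 0.428, 0.925 and 0.463 CPM in the control libraries, against 7.28, 8.08 and 15.8 CPM for EPS (log2 fold change 4.08 ± 0.46, adjusted p = 1.33e-04). EPS 3 was the highest library for Clec2i, and the groups did not overlap. All 6 T and NK cell markers were higher, with sums of 3.84 to 5.43 CPM in controls and 192 to 374 CPM in EPS, also highest in EPS 3, and their part in the values of Clec2i was not tested. Clec2g had no control and 36 EPS counts, at least 9.50-fold higher against the floor of 3 counts. Clec2h had 10 and 7 counts in controls 1 and 2, none in control 3 and none in EPS, at least 7.16-fold lower against the same floor, and Clec2e had 6 control and 4 EPS counts. Clec2g, Clec2h and Clec2e were left out by the filter.

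The secreted and intracellular members moved in both directions. Clec3b encodes tetranectin, a plasminogen-binding protein of the matrix and plasma (chromosome 9, 123150946 to 123157432), and was at 197, 187 and 177 CPM in the control libraries, against 83.6, 119 and 67.3 CPM for EPS. The groups did not overlap, and EPS was 2.05-fold lower (log2 fold change -1.05 ± 0.20, adjusted p = 0.00237). Clec11a encodes a secreted growth factor of bone and blood-forming cells, and was at 12.6, 15.7 and 9.79 CPM in the control libraries, against 29.3, 38.6 and 42.6 CPM for EPS. It was 2.96-fold higher (log2 fold change 1.54 ± 0.21, adjusted p = 4.29e-04), so the 2 secreted lectins moved in opposite directions. Fibroblast markers summed to 1665 to 1738 CPM in controls and 2650 to 4751 CPM in EPS, with 1 of 4 higher and none lower, and adipocyte markers to 8308 to 9070 CPM in controls and 592 to 976 CPM in EPS, with all 4 lower. Clec16a encodes an intracellular protein of endosomes and autophagy and was at 84.6, 83.2 and 78.1 CPM in the control libraries, against 42.3, 50.2 and 44.0 CPM for EPS (log2 fold change -0.85 ± 0.10, adjusted p = 1.95e-04). With library totals in place of TMM, Clec16a was not called (adjusted p = 0.0950; range over all alternatives 9.37e-09 to 0.0950).

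A group of 6 genes was given no class, since their names or couplings were not certain. Pira12, Pira13 and Lilrb4b were not placed in the annotations used here, and all 3 were higher without overlap. Pira13 was at 0.214, 0.198 and 0.198 CPM in the control libraries, against 3.81, 5.12 and 4.95 CPM for EPS (log2 fold change 4.46 ± 0.37, adjusted p = 2.71e-05). Pira12 was at 0.857, 0.727 and 1.19 CPM in the control libraries, against 8.25, 6.06 and 7.98 CPM for EPS (log2 fold change 2.99 ± 0.31, adjusted p = 8.31e-05), and Lilrb4b was at 3.50, 3.37 and 1.59 CPM in the control libraries, against 23.5, 29.7 and 23.8 CPM for EPS (log2 fold change 3.19 ± 0.29, adjusted p = 4.64e-05). Cd300ld4 was at 0.714, 0.0661 and 0.198 CPM in the control libraries, against 4.85, 5.78 and 2.68 CPM for EPS (log2 fold change 3.76 ± 0.68, adjusted p = 0.00184; 4.99 without control 1, which holds 10 of its 14 control counts). Cd300ld4 and Cd300ld2 are close copies of Cd300ld, so how reads were divided among them is uncertain. Cd300ld2 was at 0.214, 0 and 0.397 CPM in the control libraries, against 1.59, 1.13 and 0.743 CPM for EPS (log2 fold change 2.45 ± 0.80, adjusted p = 0.0282) and lost its call in 6 of 15 alternatives, among them without control 1 (adjusted p = 0.0909), control 2 (0.0576) or EPS 2 (0.0542), with a range of 0.00713 to 0.0909; without control 3 its log2 fold change was 3.37. Cd300c had 13 control and 120 EPS counts and was not tested.

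By position, each cluster of receptor genes held members that rose, and the size of the rise varied within clusters. In the Dectin-2 cluster 6 of 6 tested genes rose, by 2.96 to 8.54 on the log2 scale. In the Dectin-1 cluster (chromosome 6, 129342691 to 129472779) 4 of 5 rose, from Clec9a at 1.5 to Clec1b at 4.17, and Clec1a did not pass. In the CD300 cluster (chromosome 11, 114890041 to 115133992) 8 of 8 tested genes rose, by 2.25 to 6.82, while Cd300lg, which lies on the same chromosome at 102041509 to 102055620, outside it, fell. In the PIR and LILRA cluster (chromosome 7, 3711409 to 4243463) 4 of 5 rose. Over all tested genes, 29.2% were called higher. Counts of each cluster are descriptions, since neighbours are often copies.

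The signalling partners of the receptors rose on both sides. All 17 ITAM adaptors and kinases were higher, with a median log2 fold change of 3.37 and a range of 0.92 to 5.45. Of all tested genes, 29.2% were called higher and 30.4% lower. Tyrobp, which encodes DAP12, rose from 8.25 ± 0.889 to 85.3 ± 12.9 CPM (mean ± SD, n = 3), and the phospholipase Plcg2 and the exchange factor Vav1 by 3.38 ± 0.12 and 4.32 ± 0.20 on the log2 scale. Of 8 ITIM phosphatases and dampers 7 were higher and 1, the phosphatase Ptpn11 (SHP-2), named after its value was seen, was lower (-0.87 ± 0.10; adjusted p = 1.27e-04), though not with library totals. Ptpn6, which encodes SHP-1, rose from 10.2 ± 2.25 to 229 ± 45.4 CPM, and Inpp5d (SHIP-1), Dok3 and Dok1 by 2.85 ± 0.20, 3.08 ± 0.22 and 2.41 ± 0.23. All of these partners are expressed by white blood cells in general, and the rise of macrophage, neutrophil, B cell and T and NK cell markers given above goes with them; their part was not tested.

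Related receptors named outside the symbol rule were compared for scale. Of 27 tested C-type lectins with other names 12 were higher, 5 lower and 10 not called, with a median log2 fold change of 0.12. The called share of 63% is near the 59.6% of all tested genes. By direction, 44.4% were higher and 18.5% lower, against 29.2% and 30.4% of all tested genes. Named by rule are the B cell receptor Cd72 (5.29 ± 0.22), the dendritic cell receptor Ly75 (4.52 ± 0.24), the activation marker Cd69 (4.82 ± 0.37) and Klrd1 of natural killer cells (4.18 ± 0.40). Without any 1 control, 3 of these lectins were lower in place of 5. All 15 other Siglecs and paired receptors were higher (14 with any 1 of control 2, control 3, EPS 2 or EPS 3 left out), with a median of 5.12, among them the B cell Siglec Cd22 (6.82 ± 0.33), the myeloid Siglec Cd33 (2.02 ± 0.13), Pilra (4.40 ± 0.33) and Sirpa (2.80 ± 0.11), the receptor for the self signal CD47.

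Genes that make, remove or serve as ligands of the receptors were called in both directions, at about the background share for the sialic acid genes. Of 23 tested genes of sialic acid synthesis, transfer and removal 9 were higher, 5 lower and 9 not called. Their median log2 fold change was 0.04, and the called share of 60.9% is near the 59.6% of all tested genes. By direction, 39.1% were higher and 21.7% lower, against 29.2% and 30.4% of all tested genes. Nans, which makes the sialic acid precursor, rose by 1.71 ± 0.12, and the sialyltransferases St6gal1, which makes the linkage bound by CD22, and St6galnac4 by 1.35 ± 0.13 and 1.49 ± 0.11. St3gal3, which makes an alpha-2,3 linkage, fell from 102 ± 3.69 to 24.9 ± 2.36 CPM (log2 fold change -2.04 ± 0.11, adjusted p = 3.47e-06). The count of lower genes was 3 without control 1, control 3 or EPS 3. Of 5 genes listed as protein ligands, Spn (CD43, a sialylated protein bound by Siglec1) rose by 5.31 ± 0.32 and Pdpn (podoplanin, the ligand of CLEC-2) by 0.96 ± 0.16. On the log2 scale, Mmrn2 (multimerin 2, the ligand of Clec14a) fell by 0.71 and Anxa1 (annexin A1) by 0.96. Neither was called with library totals (adjusted p = 0.239 and 0.0772), and over the alternatives these ran from 1.28e-08 and 1.5e-07 up to those values. Sap130 was not called (adjusted p = 0.11). It was listed by its name, and the SAP130 protein bound by Mincle is the product of another gene.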

How the data were processed

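Polyadenylated RNA of peritoneum was sequenced after Trizol extraction, random-primed copying and 15 PCR cycles, per the labels' protocols, which name no step that marks strand. The authors deposited raw read counts for each gene symbol, and per the submitters' processing notes the build was mm10; aligner, counting tool and annotation: not given in the sources used here. Positions are gene bodies of GENCODE vM21 (GRCm38, the assembly of mm10), found for 45 of 49 members. Counts were filtered by filterByExpr (13980 genes kept), scaled by TMM and tested without covariates by edgeR 4.0.16's quasi-likelihood test (R 4.3.3), with Benjamini-Hochberg adjustment over all tested genes; limma 3.58.1 (voom) and DESeq2 1.42.0 were alternatives. After a log2 fold change, ± gives the standard error (n = 3 per group). Ratios of summed counts use TMM-scaled sizes, and each interval or floor covers counting error alone, because reads copied by PCR are not separate molecules. The code was tested on simulated data. Members, classes and lists were chosen with earlier results of these data known, and 6 members were moved to no class after the table was opened. Named in full, by rule, were the 5 members of lowest adjusted p per class, those that fell or were not called, and from each partner list the 4 called genes of lowest adjusted p, of which 1 is not reported here. Same-numbered libraries did not deviate together throughout (correlations of 0.203, -0.0969 and 0.235), so numbers were not taken as pairs.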

Additional observations from a re-analysis of the deposited data

How the results depend on the processing

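Over 15 alternatives 35 to 38 of the same 43 receptor genes were called higher against 37, lowest without control 1, and 3 were called lower, or 2 with library totals. Where the filter then let in genes left out before (Cd300c, Clec2g or Clec4a4), up to 3 more were called higher, for totals of 36 to 39. Of the 43 tested receptor genes 36 kept direction and call in every alternative, 4 lost the call in some (Cd300ld2, Clec14a, Clec2d and Clec16a), 1 gained it in some (Lilra5) and 2, neither called, changed sign in some. With the replicate block 36 were higher and 3 lower, and only Cd300ld2 lost its call (adjusted p = 0.0503); the block changed no other call among them. Leaving out each library in turn gave totals of 36 to 39 higher and 3 lower, with 3459 to 4393 of all genes higher and 3545 to 4155 lower. Library totals moved the log2 fold change of the median gene by 0.42, called 2182 of all genes lower in place of 4245 and 5657 higher in place of 4088, and left 0 of the ITIM dampers, 2 of the other C-type lectins, 2 of the sialic acid genes and 0 of the protein ligands lower, in place of 1, 5, 5 and 2. The other C-type lectins called lower numbered 3 with DESeq2 and with controls 1 and 2 averaged, and 3 to 5 with 1 library left out; the sialic acid genes called lower numbered 3 with controls 1 and 2 averaged and 3 to 4 with 1 library left out. Clec10a was reversed with library totals (0.38) and without EPS 1 (0.17), with -0.22 to 0.17 over the libraries left out, and Clec1a with RLE factors (0.018), upper-quartile factors (0.0048), library totals (0.42) and DESeq2 (0.019) and without control 2, control 3 or EPS 1, with -0.20 to 0.23 over the libraries left out. The log2 ratio of inhibitory to activating counts, EPS over control, was 0.11, was 0.06 to 0.19 with 1 library left out and -0.049 per kb of exon. Without a filter on low counts the call of Cd300ld2 was lost (0.0523), and Cd300c, Clec4a4 and Clec2g were called higher. The causes were not tested. Genes with a handful of control counts (Clec4e, Cd300e, Clec4a4, Clec2g, Clec4g, Pira1) have folds limited by counting, and limma-voom gave 6.98 for Clec4g, 5.69 for Pira1, 6.00 for Cd300e and 7.94 for Clec4e.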
